A study of Mus musculus with 24 samples.

Results

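The enzymes of oxidative phosphorylation were followed across the ventral prostate of 6 inbred mouse strains through the transcripts of their nuclear-encoded subunits. A gene was taken as a member when its probe set carried a single symbol beginning with Nduf, Sdha, Sdhb, Sdhc, Sdhd, Uqcr, Cyc1, Cox4, Cox5, Cox6, Cox7, Cox8 or Atp5, and every probe set of such a gene was kept. The rule found 161 of the 22690 probe sets on the array and 88 of the 12393 genes with a single-symbol probe set. Complex I contributed 74 probe sets of 39 genes, complex II 11 of 7, complex III 16 of 9, complex IV 32 of 16 and complex V 28 of 17. The complex was assigned by the prefix of the symbol alone, so Ndufa4 was counted with the complex I accessory genes whatever its place in the chain. The prefixes also bring in dedicated assembly factors (the Ndufaf and Sdhaf genes) and Cox7a2l, a factor of respiratory supercomplexes, and these were kept apart by role. Of the members, 151 probe sets of 84 genes had signal above the filter on dim values and entered the tests. The 4 genes whose probe sets all failed were Cox6b2, Cox7a1, Cox7c and Cox8b, and the other failing probe sets were extra ones of Atp5g2, Cox5b, Ndufa10, Ndufab1 and Ndufb9.

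The series profiled total RNA of the ventral prostate lobe on Affymetrix arrays, as part of a search for cancer modifier genes through expression differences between parental strains. The groups were BALB/c, C57BL/6, AKR, FVB, SWR and 129X1 mice, each on 4 of the 24 arrays. All mice were wild type, 8 weeks old, untreated and on a standard diet, so the strain was the one labelled difference. The labels call the 4 arrays of a strain biological replicates and do not say whether each was 1 mouse or a pool, so the p-values measure the spread between these samples.

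The respiratory chain passes electrons from NADH through complex I and from succinate through complex II to ubiquinone, then through complex III and cytochrome c to complex IV, which reduces oxygen. Complexes I, III and IV pump protons across the mitochondrial inner membrane, and complex V, the ATP synthase, uses the return flow to make ATP. The catalytic centres sit in a few conserved subunits, some of them encoded by mitochondrial DNA, while most of the mass of complex I and many small parts of the others are accessory subunits encoded in the nucleus. Prostate epithelium is known for secreting citrate in place of oxidising it fully, so the supply of electrons to this chain is a long-standing topic in that tissue.

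A level below is log2(intensity + 16) after the arrays were brought to one trimmed mean, and levels of different probe sets were not compared. A difference is the mean of a strain minus the mean of the other 5 strain means, on the same log2 scale and with its standard error. A fold is the difference taken out of log2 and so understates the change of dim genes. Calls are limma's moderated tests with Benjamini-Hochberg adjustment over all 15775 tested probe sets, at an adjusted p of 0.05. Counts by gene use the brightest tested probe set of each gene. The trimmed mean intensities of the arrays ran from 91.4 to 105 before scaling. The 3'/5' ratios of the Gapdh control ran from 0.76 to 1.17 and those of the actin control from 1.10 to 1.74, with BALB/c replicate 3 highest. Markers of prostate luminal cells and of ventral prostate secretion passed the filter for 5 and 6 genes, while the 2 seminal vesicle genes that passed had a summed intensity of only 43.4 to 111. Skeletal muscle markers stood high on replicate 4 of SWR, 129X1 and C57BL/6, and values without these 3 arrays are given for the member counts by strain and where a call of a named gene was lost.

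BALB/c prostate carried the highest levels of the respiratory chain transcripts. Against the other 5 strains, 52 of the 151 member probe sets were higher in BALB/c and 6 were lower, where 8.3% and 10.6% of all tested probe sets were called in those directions. By gene, 33 of 84 were higher and 3 lower, and 69 of the 84 differences lay above zero. The median BALB/c difference was 0.21 over the member probe sets and -0.01 over all probe sets. Among the leading genes were Ndufv3, Ndufs5, Ndufa1, Ndufa7 and Ndufa3 of complex I, Uqcr10 and Uqcrh of complex III, and Cox7a2 and Cox6b1 of complex IV. BALB/c held the highest strain mean in 43 of the 84 genes, against 19.5% of all tested probe sets. Without the 3 arrays of high skeletal muscle signal, 50 probe sets were higher and 3 lower. With the values scaled as deposited, 32 were higher and 7 lower, the member median was 0.10 and that of all probe sets was -0.10. Leaving out BALB/c replicate 4 took the 58 calls to 38, and 28 of the 52 higher calls and none of the 6 lower calls held with every array left out in turn.

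By the number of lower calls, SWR stood at the other end. In SWR, 27 member probe sets were lower and 2 higher, against 5.04% and 5.52% of all tested probe sets, and 15 genes were lower and none higher. The SWR median difference was -0.14, and SWR held the lowest strain mean in 23 of the 84 genes, against 19.1% of all tested probe sets. FVB held the lowest strain mean in 20 of the 84, against 12.9%. FVB had 12 member probe sets lower and 1 higher, against 3.65% and 3.45% (7.09% in either direction). C57BL/6 had 15 higher and 4 lower, against 5.65% and 5.45%, and 1 of the 15, of Uqcr10, passed the filter through C57BL/6 alone. In 129X1, 6 were higher and 6 lower, against 6.38% and 5.27%, and in AKR 2 were higher and 4 lower, against 4.67% and 5.12%, so in AKR 3.97% of the members were called in either direction against 9.79% of all tested probe sets, and in 129X1 7.95% against 11.6%. The 29 SWR calls became 19 without SWR replicate 3, the 13 FVB calls became 6 to 8 without any one FVB array, the 12 calls in 129X1 became 6 without its replicate 3 or its replicate 4 and 3 without the 3 arrays of high skeletal muscle signal, and the 19 C57BL/6 calls became 12 without its replicate 1 and 11 without its replicate 3. The 6 AKR calls became 11 without BALB/c replicate 2. Without the 3 arrays of high skeletal muscle signal SWR had 21 calls, FVB 12, C57BL/6 13 and AKR 6. Any difference among the 6 strains, by the moderated F test, was called for 74 of the 151 probe sets (49.0%), against 36.4% of all tested probe sets, and for 59 without those 3 arrays. By gene the F test called 20 of 39 in complex I, 5 of 7 in complex II, 5 of 9 in complex III, 6 of 12 in complex IV and 7 of 17 in complex V.

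**Figure D1:**
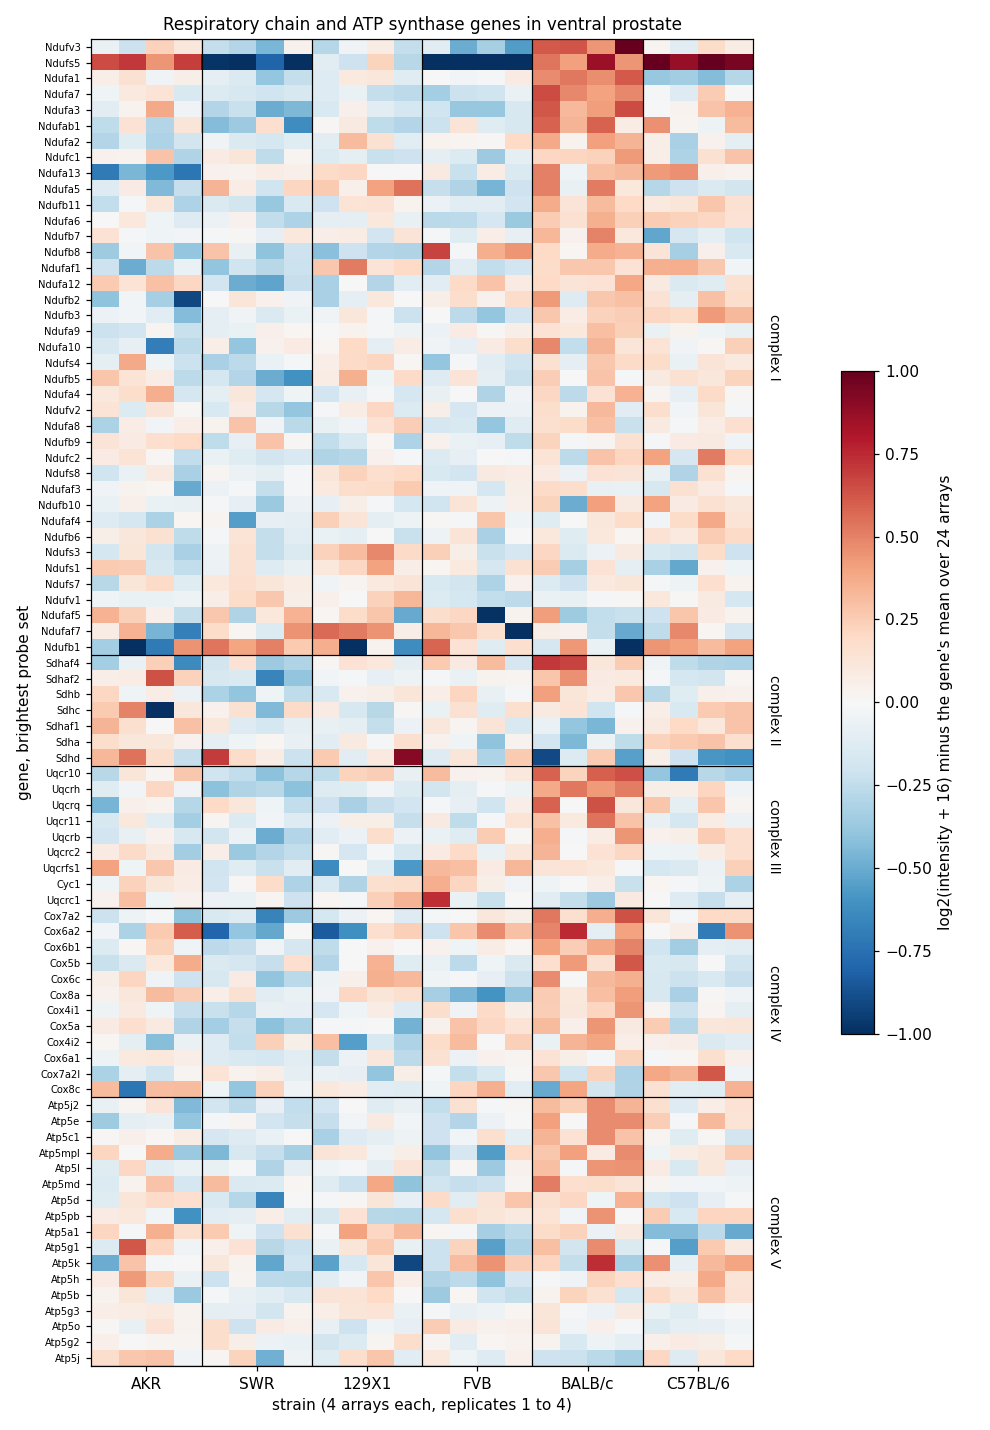
The 84 tested genes (rows) on the 24 arrays (columns, 4 per strain), shown as log2(intensity + 16) minus the gene's mean over all arrays. Colours are clipped at 1 above and below. Rows are ordered by complex and, within a complex, by the BALB/c difference from the largest down, so the BALB/c gradient within a complex follows from the sorting. The BALB/c columns are the warmest block in complexes I, III and IV, and the Ndufs5 row changes colour from strain to strain.

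Taken pair by pair, BALB/c again gave the most called members. Between BALB/c and SWR 56 of the 151 probe sets were called, against 19.8% of all tested probe sets. BALB/c differed in 40 members from AKR (12.6%), in 38 from FVB (11.6%), in 37 from 129X1 (17.6%) and in 36 from C57BL/6 (14.6%). The pairs without BALB/c gave 6 to 22 members, from SWR against 129X1 (9.2%) to C57BL/6 against SWR (7.97%) and against FVB (10.8%). AKR differed in 17 members from SWR (10.0%) and in 10 from FVB (7.42%), and FVB differed in 11 from SWR (6.87%) and in 10 from 129X1 (8.49%).

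The mean of the 84 centred gene levels gave 1 value per array. It was 0.23, 0.07, 0.21 and 0.15 on the BALB/c arrays and -0.07, -0.09, -0.18 and -0.12 on the SWR arrays. Over the 20 arrays of the other strains it reached at most 0.09, so BALB/c replicate 2 lay within the range of the others and the other 3 BALB/c arrays above it. For complex IV all 4 BALB/c arrays, at 0.20 to 0.26, lay above the 20 others, which ran from -0.18 to 0.06. For complex II the BALB/c arrays, at -0.03 to 0.06, lay inside the range of the others.

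**Figure D2:**
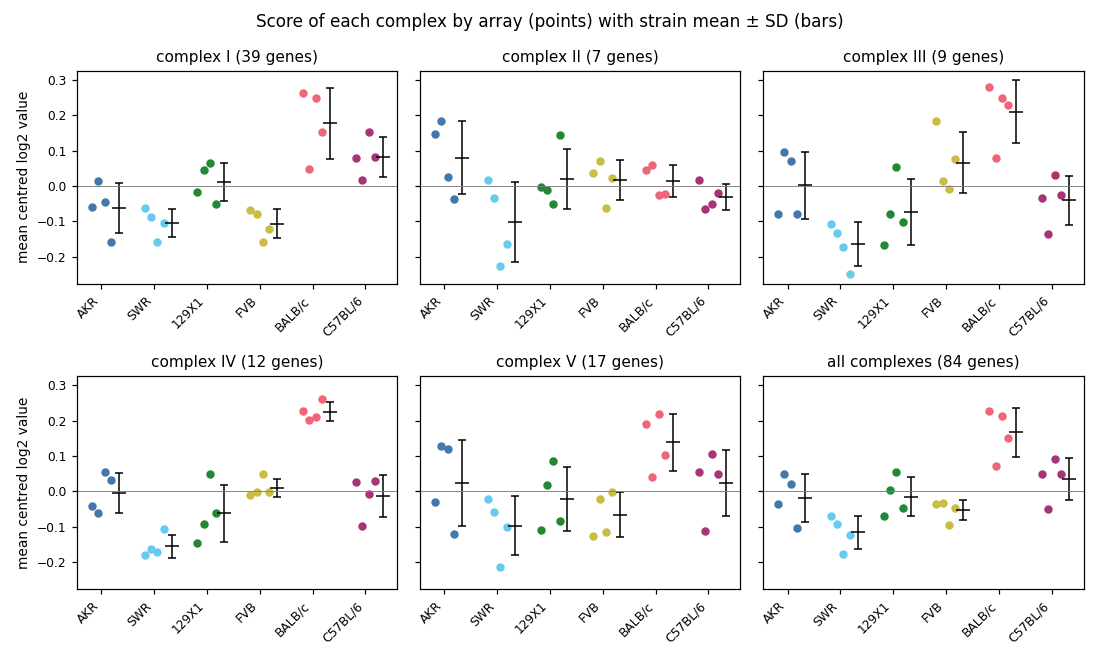
Mean centred log2 level per array (points) by strain, with panels for all members and for each complex and bars at the strain mean with its SD. BALB/c lies highest in every panel but that of complex II, and apart from all other arrays in that of complex IV, at 0.20 to 0.26.

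Levels of cell type markers differed between the strains. In bulk tissue, fewer cells of a type and less RNA per cell cannot be told apart. In the counts that follow, the second percentage is the share of all tested probe sets called that way in that strain. Of 12 smooth muscle markers, all above the filter, 9 were lower in BALB/c (75.0% against 10.6%). The summed intensity of the 12 was 5522 to 5874 on the BALB/c arrays and 6801 to 15944 on the others. In FVB 10 of 12 were higher (83.3% against 3.45%, sums of 11592 to 13664), and in 129X1 4 of 12 (33.3% against 6.38%). In SWR 5 of 12 were higher (41.7% against 5.52%, sums of 9626 to 15944) and 1 lower (8.33% against 5.04%). In AKR 1 was lower (8.33% against 5.12%) and in C57BL/6 2 (16.7% against 5.45%), with none higher in either. Of 5 basal epithelial markers all 5 were lower in BALB/c (100% against 10.6%), with sums of 251 to 292. In C57BL/6 4 were lower (80.0% against 5.45%), with sums of 262 to 299. In SWR 4 of the 5 were higher (80.0% against 5.52%, sums of 606 to 805) and in 129X1 3 (60.0% against 6.38%, sums of 786 to 924). The luminal markers had 3 of 5 higher in BALB/c (sums of 7056 to 7674, against at most 6554 elsewhere), and the secretory markers 5 of 6 (31745 to 36888, against at most 27860), with the sixth of these, Azgp1, and the luminal Hoxb13 lower. Of 6 adipocyte markers 4 were higher in BALB/c (539 to 3808) and 3 in FVB (369 to 3976), and 3 were lower in C57BL/6 (264 to 306). When the smooth muscle score was added to the model the 58 BALB/c member calls became 3, and with the adipocyte score they became 21. With the smooth muscle score SWR had 22 calls in place of 29, FVB 4 in place of 13, 129X1 2 in place of 12 and C57BL/6 11 in place of 19, and with the adipocyte score SWR had 18, FVB 4 and C57BL/6 12. The BALB/c smooth muscle scores, at -0.83 to -0.55, did not overlap those of the other arrays, the lowest of which was -0.52, so that score and the BALB/c strain cannot be told apart in these arrays.

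Complex I held the member with the widest strain range. Ndufs5, an accessory subunit of complex I on the intermembrane space side (1416494_at, its one probe set), had a 4.55-fold range of strain means (F test by limma, adjusted p = 1.18e-12). The FVB arrays read 5.96, 6.21, 6.10 and 6.08, and the 20 others had a lowest value of 6.23, a median of 7.69 and a highest of 8.43. The SWR arrays read 6.27, 6.23, 6.45 and 6.23. The C57BL/6 arrays read 8.34, 8.12, 8.43 and 8.20, and the 20 others reached 8.11. All 4 FVB arrays thus lay below every other array and all 4 C57BL/6 arrays above every other array, with SWR next to FVB. The order of means was C57BL/6 8.27 ± 0.14 (SD, n = 4, here and below), AKR 7.87 ± 0.13, BALB/c 7.81 ± 0.21, 129X1 7.16 ± 0.22, SWR 6.29 ± 0.10 and FVB 6.09 ± 0.10. Of the 5 neighbouring pairs in that order, C57BL/6 and AKR, BALB/c and 129X1, and 129X1 and SWR differed (limma, adjusted p = 0.0325, 0.000523 and 2.95e-05), while AKR and BALB/c, and SWR and FVB, did not pass (0.801 and 0.341). The difference from the other 5 strains was 1.23 ± 0.09 in C57BL/6 (limma, adjusted p = 2.01e-09), -1.15 ± 0.09 in SWR (adjusted p = 1.02e-08) and -1.39 ± 0.09 in FVB (adjusted p = 2.72e-10). With the other 20 arrays as 1 group, whose own spread then includes the other strains, the C57BL/6 and SWR calls were lost (adjusted p of 0.0552 and 0.103) and the FVB call was kept.

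The promoter of Ndufs5 is shown because this gene had the widest range, and because it holds a match to the binding motif of nuclear respiratory factor 1 (NRF1), a factor known for driving respiratory chain genes. The window is 250 bases before to 50 after the RefSeq start, at chr4:123718137-123718436 on the minus strand of GRCm38.p6, written 5′ to 3′ along the gene, with the match in capitals.
Ndufs5: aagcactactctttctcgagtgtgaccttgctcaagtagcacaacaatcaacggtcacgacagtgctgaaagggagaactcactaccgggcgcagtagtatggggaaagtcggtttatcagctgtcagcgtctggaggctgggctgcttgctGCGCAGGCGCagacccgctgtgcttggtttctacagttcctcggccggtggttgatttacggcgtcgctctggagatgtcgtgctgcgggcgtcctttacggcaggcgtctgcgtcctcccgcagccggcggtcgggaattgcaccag
Such windows were found for 73 of the 88 member genes, 78 windows in all, and were searched on both strands for 3 motifs. The NRF1 motif (GCGCA, any 1 base, then GCGC) was in 23.1% of the member windows and 4.60% of all 32851 RefSeq promoter windows of this length. CCGGAAG, the core bound by ETS-family factors such as GABP, was in 25.6% and 8.86%, and AAGATGGCG, bound by YY1, in 7.69% and 1.40%. Of the 28 genes higher in BALB/c with a window, 4 had the NRF1 letters, 9 the ETS letters and 3 the YY1 letters, and of the 41 other tested genes 13, 11 and 3 had them. A match describes the letters only.

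Of the 28 complex I accessory genes, Ndufs5 included, 18 were called by the F test, 15 were higher in BALB/c and none lower, and 27 of the 28 BALB/c differences lay above zero, with a median of 0.27. Ndufv3 (1424628_a_at), a small subunit attached to the NADH-oxidising tip, read 10.59, 10.60, 10.42 and 10.97 on the BALB/c arrays, and the 20 others had a lowest value of 9.42, a median of 9.86 and a highest of 10.20. The BALB/c arrays all lay above the others, with a difference of 0.81 ± 0.11, or 1.75-fold (limma, adjusted p = 1.08e-05). In FVB the difference was -0.45 ± 0.11 (adjusted p = 0.0104), a call lost without FVB replicate 2 (0.0553) or replicate 4 (0.0714). Ndufa1 (1422241_a_at), the X-linked membrane subunit, read 11.88, 11.93, 11.87 and 12.01 in BALB/c against at most 11.55 elsewhere, and 11.02, 11.05, 10.97 and 11.12 in C57BL/6 against a median of 11.43 elsewhere. BALB/c was thus the highest strain without overlap and C57BL/6 the lowest, its range touching that of SWR (11.30, 11.26, 11.01 and 11.16), with differences of 0.62 ± 0.07 (adjusted p = 1.06e-06) and -0.43 ± 0.07 (adjusted p = 0.000169).

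Ndufa7, an accessory subunit of the peripheral arm, had 5 tested probe sets, and 4 of them were higher in BALB/c. The brightest (1428360_x_at) read 10.76, 10.59, 10.51 and 10.59 in BALB/c against at most 10.36 elsewhere, a difference of 0.61 ± 0.08 (limma, adjusted p = 6.14e-06). Ndufa7 was named after its values were seen, as were Ndufv1, Ndufc1, Ndufc2, Atp5j2 and Atp5h below. Ndufa3 (1452790_x_at), a subunit of the membrane arm, read 10.20, 9.90, 9.99 and 10.23 in BALB/c and 9.29, 9.36, 9.08 and 9.13 in SWR, and the remaining arrays fell between 9.20 and 9.96. The BALB/c difference was 0.61 ± 0.09 (adjusted p = 6.15e-05) and the SWR difference -0.44 ± 0.09 (adjusted p = 0.0032), and its second probe set was called the same way in both strains.

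Ndufa13, also known as GRIM-19 and needed for assembly of the complex (1430713_s_at, its one probe set), set AKR apart. The AKR arrays read 9.11, 9.36, 9.25 and 9.10, below all 20 others, which had a lowest value of 9.60, a median of 9.88 and a highest of 10.32. The AKR difference was -0.74 ± 0.10, or 1.67-fold (limma, adjusted p = 1.13e-05). It was the 1 member probe set with all AKR arrays below the others, a pattern seen in 0.52% of all tested probe sets. Ndufb2, a small membrane-arm subunit, was also lower in AKR, at -0.50 ± 0.12 (adjusted p = 0.00617), with arrays at 8.40, 8.78, 8.48 and 7.89. Replicate 4 was the lowest of them, and the call was lost without it (adjusted p = 0.0709). The second Ndufb2 probe set gave -0.26 ± 0.11 in AKR (adjusted p = 0.147) and was not called.

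The other accessory genes higher in BALB/c were Ndufab1 (the acyl carrier protein), Ndufa2, Ndufa6, Ndufa9, Ndufa12, Ndufb7 and Ndufb11, with differences of 0.24 to 0.48, and Ndufa13 and Ndufb3 at 0.32 and 0.25. Of these 9 genes, at the brightest probe set, Ndufa2 and Ndufa6 kept the call with each array left out, and the others lost it without at least 1 array (adjusted p up to 0.188). Of the 4 tested Ndufa12 probe sets 1 was higher in BALB/c, 1 in AKR and 1 in C57BL/6, while 2 were lower in SWR and 1 in 129X1. For Ndufb7 1 of 2 probe sets was higher in BALB/c. In SWR, Ndufa12 was also lower (-0.44 ± 0.09, limma, adjusted p = 0.00218), as were Ndufa1 (-0.26 ± 0.07, adjusted p = 0.0193, lost without SWR replicate 3 or 4) and Ndufb11 (-0.26 ± 0.08, adjusted p = 0.0495, lost with 20 of the 24 arrays left out).

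Single strains stood out in further accessory genes. In SWR, Ndufb5 read 8.94, 8.83, 8.63 and 8.51 against a median of 9.22 on the 20 others, a difference of -0.47 ± 0.10 (limma, adjusted p = 0.00263), and its dimmer probe set was not called. In C57BL/6, Ndufb3 was higher by 0.34 ± 0.08 (adjusted p = 0.00837), a call lost without C57BL/6 replicate 3 (0.0589) or the 3 arrays of high skeletal muscle signal (0.0515). In 129X1, Ndufa5 was higher by 0.38 ± 0.11 (adjusted p = 0.0312), and in FVB, Ndufb8 by 0.44 ± 0.13 (adjusted p = 0.038). Both calls rested on few arrays, since that of Ndufa5 was lost without replicate 1, 3 or 4 of 129X1 (up to 0.166) or the 3 arrays of high skeletal muscle signal (0.185), and that of Ndufb8 without replicate 1, 3 or 4 of FVB or replicate 1 of 129X1 (up to 0.207) or those 3 arrays (0.0698).

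Ndufc1 and Ndufc2, a pair of small membrane-arm subunits, were called in different strains. Ndufc1 was higher in BALB/c on both probe sets, by 0.33 ± 0.10 and 0.53 ± 0.11 (limma, adjusted p = 0.0263 and 0.00172), the first call being lost without BALB/c replicate 4 (0.116). The dimmer Ndufc2 probe set (1416366_at) read 9.26, 9.04, 9.48 and 9.44 in C57BL/6, above all 20 others, whose highest value was 8.99. That was a difference of 0.87 ± 0.12 (adjusted p = 2.52e-05), while the brighter Ndufc2 probe set gave 0.29 ± 0.11 (adjusted p = 0.0923) and was not called.

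The Ndufc1 promoter is shown as the YY1 example, with the letters AAGATGGCG in capitals just after the start (chr3:51408906-51409205, minus strand, GRCm38.p6, RefSeq).
Ndufc1: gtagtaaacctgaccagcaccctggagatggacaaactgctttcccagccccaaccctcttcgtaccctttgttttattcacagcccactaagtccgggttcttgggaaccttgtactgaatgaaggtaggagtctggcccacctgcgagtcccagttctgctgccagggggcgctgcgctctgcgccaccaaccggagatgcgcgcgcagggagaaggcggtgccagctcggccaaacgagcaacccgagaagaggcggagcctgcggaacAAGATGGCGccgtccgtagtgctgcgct

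The core subunits of complex I, most of which bind the flavin or iron-sulfur clusters, held few of the calls. Of 6 core genes 1 was called by the F test, none was higher or lower in BALB/c, and their BALB/c differences ran from -0.04 to 0.13, at the brightest probe sets. A dimmer probe set each of Ndufs7 and Ndufs8 was higher in BALB/c (0.31 ± 0.10 and 0.28 ± 0.08, limma, adjusted p = 0.0319 and 0.0211), the first call being lost without BALB/c replicate 2, 3 or 4 (up to 0.159) and the second without replicate 1 or 3 (up to 0.0809). Of the 6 Ndufs8 probe sets 2 passed the F test and 1 was higher in 129X1. The gene called by the F test at its brightest probe set was Ndufv1, the flavin-binding subunit. Its brightest probe set was lower in FVB (-0.25 ± 0.07, limma, adjusted p = 0.0356), a call lost without any one FVB array (up to 0.13). On both dimmer probe sets the FVB arrays lay apart. The second (1456015_x_at) read 7.37, 7.38, 7.43 and 7.60 in FVB, below all 20 others, whose lowest value was 8.09, a difference of -0.99 ± 0.09, or 1.99-fold (adjusted p = 3.03e-08). The third (1415966_a_at) had a difference of -0.98 ± 0.09 (adjusted p = 4.89e-08), also without overlap. The probe sets of this gene shared the direction in FVB but not the size, and both dimmer ones were also higher in SWR and 129X1. Ndufs3, a core subunit of the peripheral arm, was higher in 129X1 by 0.36 ± 0.10 (adjusted p = 0.0189), a call lost without 129X1 replicate 2 (0.0571), replicate 3 (0.102) or the 3 arrays of high skeletal muscle signal (0.054), and its F test did not pass (adjusted p = 0.0768). Of 5 assembly factors Ndufaf1 was the one called by the F test (adjusted p = 0.000134). Its means formed a lower set of AKR 6.15 ± 0.18, SWR 6.13 ± 0.09 and FVB 6.19 ± 0.08, and a higher set of 129X1 6.68 ± 0.17, BALB/c 6.62 ± 0.06 and C57BL/6 6.65 ± 0.18. Its AKR call (adjusted p = 0.0243) was lost without AKR replicate 1, 2 or 3 (up to 0.117), and its 129X1 call (adjusted p = 0.0108) without 129X1 replicate 2 (0.0919). Its SWR, BALB/c and C57BL/6 calls were likewise lost without 1 or more arrays of the strain (adjusted p up to 0.139).

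**Figure D3:**
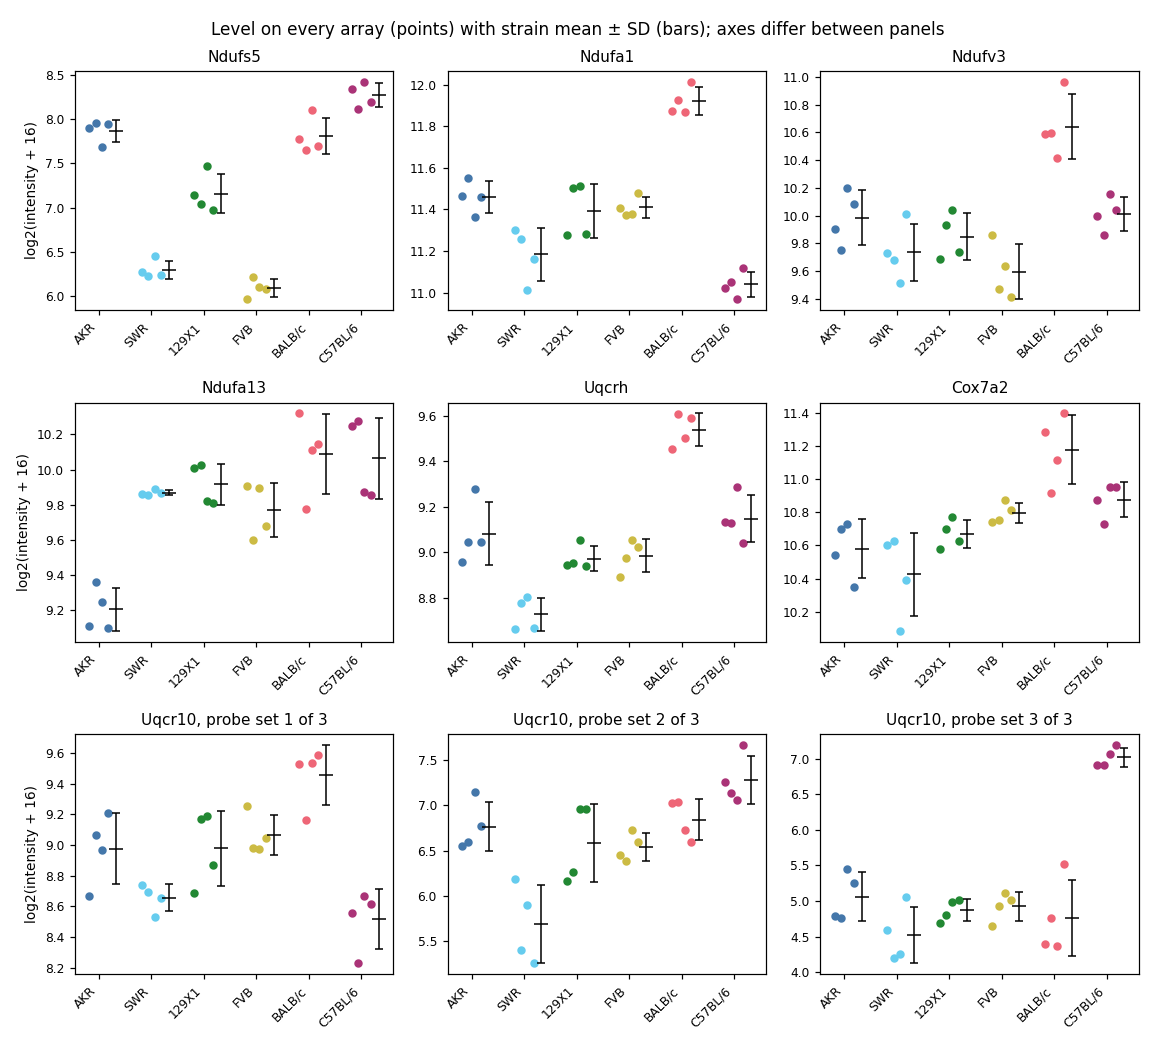
Level, log2(intensity + 16), of 9 member probe sets on each array by strain: Ndufs5, Ndufa1, Ndufv3, Ndufa13, Uqcrh, Cox7a2 and the 3 probe sets of Uqcr10. Points are arrays and bars are strain means with SD. FVB is lowest and C57BL/6 highest for Ndufs5, AKR is lowest for Ndufa13, and the Uqcr10 panels place C57BL/6 lowest for the brightest probe set and highest for the other 2, on the dimmest of which no array of another strain exceeds the filter level.

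Complex II, the enzyme shared with the citric acid cycle, gave BALB/c calls in both directions. Of its 7 genes 2 were higher and 2 lower in BALB/c, with a median difference of 0.00. The catalytic pair went opposite ways: Sdhb, the iron-sulfur subunit, was higher by 0.26 ± 0.09 (limma, adjusted p = 0.0361) and Sdha, the flavoprotein subunit, lower, at -0.29 ± 0.08 (adjusted p = 0.0165). The Sdha arrays read 8.80, 8.54, 8.94 and 8.73 in BALB/c and 9.22, 9.25, 9.28 and 9.15 in C57BL/6, the lowest and the highest strain, with no overlap between these strains. Each call rested on few arrays, since that of Sdhb was lost without BALB/c replicate 1 or 4 (up to 0.171) and that of Sdha without BALB/c replicate 2 (0.104) or 4 (0.0505). The second Sdha probe set gave 0.17 ± 0.07 in BALB/c (adjusted p = 0.12), so the lower level was not seen there. Sdha was higher in C57BL/6 on both probe sets (0.28 and 0.26). The first call was lost without C57BL/6 replicate 1, 2 or 3 (limma, adjusted p up to 0.0988). The second was lost without replicate 1, 3 or 4 (up to 0.111). Sdhb was lower in SWR (-0.30 ± 0.09, adjusted p = 0.0263), a call lost without SWR replicate 1, 2 or 4 (up to 0.137). The membrane anchors Sdhc and Sdhd were not called at their brightest probe sets, and the dimmer Sdhc probe set was lower in BALB/c (-0.37 ± 0.10, adjusted p = 0.0145, lost without BALB/c replicate 2 or 4).

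The assembly factors of complex II varied as well. Sdhaf4, an assembly factor that protects free Sdha, read 7.99, 7.96, 7.39 and 7.53 in BALB/c against a median of 7.20 on the others, a difference of 0.53 ± 0.13 (limma, adjusted p = 0.00622). Sdhaf2, which helps attach the flavin, read 7.54, 7.56, 7.05 and 7.31 in SWR against a median of 7.73, a difference of -0.41 ± 0.10 (adjusted p = 0.00995) that was lost without SWR replicate 3 (0.0791). The F test of Sdhaf4 was lost without BALB/c replicate 1 (0.0613) or 2 (0.0577), or without the 3 arrays of high skeletal muscle signal (0.051). Sdhaf1, an iron-sulfur assembly factor, was lower in BALB/c (-0.26 ± 0.09, adjusted p = 0.0442), a call lost in 22 of the 34 alternatives run.

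In complex III the BALB/c and SWR calls lay among the small subunits. Of the 5 small subunits 4 were higher in BALB/c, with a median difference of 0.40, and 3 lower in SWR, with a median of -0.31. Neither catalytic subunit (Cyc1 and Uqcrfs1) and neither core protein was called in BALB/c or SWR. Uqcrh, the hinge subunit beside cytochrome c1 (1452133_at, its one probe set), read 9.46, 9.61, 9.51 and 9.59 in BALB/c and 8.66, 8.78, 8.80 and 8.67 in SWR. The 4 remaining strains lay between 8.89 and 9.29, so neither strain overlapped any other array. The differences were 0.56 ± 0.07 in BALB/c (limma, adjusted p = 4.84e-06) and -0.42 ± 0.07 in SWR (adjusted p = 0.000314). All BALB/c arrays lay above the 20 others in 9 member probe sets, against 1.27% of all tested probe sets, and all SWR arrays below in 2, against 0.463%. No member had all 129X1 arrays above the rest (0.862% of all tested probe sets), all BALB/c arrays below (0.856%) or all C57BL/6 arrays below (0.628%). Besides Uqcrh the small subunits Uqcr10, Uqcrq and Uqcr11 were higher in BALB/c (Uqcrq 0.40 ± 0.11, lost without BALB/c replicate 1 or 3, and Uqcr11 0.37 ± 0.09), and Uqcr10 and Uqcrb were lower in SWR (Uqcrb -0.31 ± 0.09, lost without SWR replicate 1, 3 or 4). Of the 4 tested Uqcrq probe sets 2 were higher in BALB/c, and of the 2 of Uqcrb 1 was lower in SWR. The Uqcrh promoter is shown because of this 2-sided separation and as the ETS example. The capitals are CTTCCGG, the reverse complement of CCGGAAG, at chr4:116075021-116075320 on the minus strand of GRCm38.p6, from RefSeq.
Uqcrh: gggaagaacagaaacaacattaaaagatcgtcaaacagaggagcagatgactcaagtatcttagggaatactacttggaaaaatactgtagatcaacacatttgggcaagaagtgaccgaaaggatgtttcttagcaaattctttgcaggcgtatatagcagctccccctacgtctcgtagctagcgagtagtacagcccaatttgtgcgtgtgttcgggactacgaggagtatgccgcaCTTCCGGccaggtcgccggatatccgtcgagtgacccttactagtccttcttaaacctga

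Uqcr10, a small single-pass subunit of complex III, was measured by 3 probe sets with different strain patterns. The brightest (1424364_a_at) read 9.53, 9.16, 9.54 and 9.59 in BALB/c and 8.55, 8.23, 8.66 and 8.61 in C57BL/6, the highest and the lowest strain. Its differences were 0.62 ± 0.11 (limma, adjusted p = 0.000242) and -0.51 ± 0.11 (adjusted p = 0.00226). The dimmest (1434340_at) read 6.90, 6.91, 7.07 and 7.19 in C57BL/6, and the 20 others had a lowest value of 4.20, a median of 4.80 and a highest of 5.52. None of those 20 arrays exceeded its own filter level, so the probe set was tested only because of the C57BL/6 arrays and had to differ there. With the others set to their filter level, C57BL/6 was at least 2.61-fold higher, and no p-value is given because of that filter. Differences among the other strains on it are not read. It is nevertheless counted among the 15 member probe sets higher in C57BL/6, the 27 lower in SWR, the 6 lower in BALB/c and the 74 called by the F test. Its part in those counts is no support for them. The middle probe set (1434341_x_at) was higher in C57BL/6 by 0.79 ± 0.16 (adjusted p = 0.00174). SWR was lower on the brightest and the middle one, at -0.34 and -1.11 (adjusted p = 0.0415 and 6.31e-05), the first call being lost with 13 of the 24 arrays left out. The direction in C57BL/6 therefore depends on the probe set, and the reason was not tested. Uqcrfs1, the Rieske iron-sulfur protein, was lower in 129X1, with arrays at 8.42, 9.04, 8.92 and 8.47 against a median of 9.13 on the others. Replicates 1 and 4 were the low ones, and the difference of -0.40 ± 0.10 (adjusted p = 0.0132) was lost without either (0.112 and 0.101) and without the 3 arrays of high skeletal muscle signal (0.130).

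Complex IV, the one complex whose mean level set all BALB/c arrays apart, had 6 of 12 genes higher in BALB/c, none lower and a median difference of 0.31. Cox7a2, the widely expressed isoform of subunit 7a (1416970_a_at), read 11.28, 10.92, 11.11 and 11.39 in BALB/c and 10.60, 10.63, 10.08 and 10.39 in SWR, against a median of 10.72 on the 20 arrays outside BALB/c. The BALB/c difference was 0.51 ± 0.10 (limma, adjusted p = 0.000605) and the SWR difference -0.39 ± 0.10 (adjusted p = 0.0099), the latter lost without SWR replicate 3 (0.0839). On its dimmer probe set BALB/c was also higher (0.36 ± 0.07), but the lowest strain was 129X1, with all 4 arrays below the others (-0.40 ± 0.07, adjusted p = 0.000495). Cox6b1, which sits at the dimer contact on the intermembrane side, read 11.12, 10.96, 11.09 and 11.21 in BALB/c, above all others, which reached 10.93 (0.46 ± 0.08, adjusted p = 0.000203). Cox8a, a small single-pass subunit, read 9.35, 9.21, 9.08 and 9.28 in FVB, below all 20 others, whose lowest value, 9.35, was just above that of FVB replicate 1, and whose median was 9.78. That was a difference of -0.54 ± 0.08, or 1.45-fold (adjusted p = 0.000126), and Cox8a was higher in BALB/c by 0.32 ± 0.08 (adjusted p = 0.00732). Cox6c was higher in BALB/c on 1 of its 2 probe sets (0.34 ± 0.10, lost without BALB/c replicate 1 or 4). Cox5a, a matrix-side subunit, was lower in SWR on 2 of its 3 (-0.39 ± 0.10 at the brightest, lost without SWR replicate 1 or 3). All FVB arrays lay below the others in 4 member probe sets, of Ndufs5, Ndufv1 and Cox8a, against 0.317% of all tested probe sets.

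Subunit isoforms separate tissues in complex IV. Calls by strain were found among the ubiquitous forms and not among the 3 tissue forms that passed the filter. Of the 6 ubiquitous partner genes (Cox6a1 and Cox7a2l included) 4 were higher in BALB/c (Cox4i1, Cox6b1, Cox7a2 and Cox8a), or 66.7% against 8.3% of all tested probe sets. Cox4i1, the standard form of the largest nuclear subunit, was higher there by 0.31 ± 0.08 (limma, adjusted p = 0.00789), a call lost without BALB/c replicate 4 (0.0608). Cox6a1 was not called in any strain, and its means ran from 10.99 to 11.23. Cox7a2l was higher in C57BL/6 on all 3 of its probe sets, by 0.39, 0.27 and 0.44 (adjusted p = 0.0229, 0.00927 and 0.00625). Cox7a2l shares the subunit 7a family and helps join complexes III and IV. The brightest probe set read 10.22, 10.17, 10.45 and 9.80 in C57BL/6, overlapping the others, and its call was lost without C57BL/6 replicate 1, 2 or 3 (up to 0.154), the second without replicate 2 or 3 (0.0512 and 0.0664) and the third without replicate 3 (0.0511). The F test of the brightest did not pass (limma, adjusted p = 0.0765), though it did without the 3 arrays of high skeletal muscle signal (0.0241). The heart and skeletal muscle forms Cox7a1 and Cox8b failed the filter, with median intensities of 9.11 and 7.55 and their highest values on FVB replicate 2 (31.0 and 40.8). The testis form Cox6b2 failed it too (median 22.9), as did Cox7c (5.58 and 21.6 on its 2 probe sets), which is a ubiquitous subunit. The lung form Cox4i2 had a median intensity of 54.3, the muscle form Cox6a2 one of 61.6 and the testis form Cox8c one of 211. None of these 3 passed the F test (limma, adjusted p = 0.195, 0.109 and 0.87), but Cox4i2 did without 129X1 replicate 1 (0.0421), and Cox6a2 did without the 3 arrays of high skeletal muscle signal (0.0364) and with the skeletal muscle score as a covariate (0.00805). The strain means of Cox6a2 spanned 1.75-fold, and those of Cox7a2, the widest ubiquitous partner, 1.68-fold. The median BALB/c difference was 0.22 over these 3 tissue forms and 0.31 over the 6 partners, so the missing calls do not show that the tissue forms varied less.

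Cox5b, a zinc-binding subunit, had 5 tested probe sets, of which 3 were higher and 1 lower in BALB/c. The brightest read 10.73, 10.99, 10.72 and 11.19 (0.41 ± 0.11, limma, adjusted p = 0.0125), a call lost without BALB/c replicate 4 (0.0899), and its F test did not pass (adjusted p = 0.0736). The second (1456588_x_at) read 10.51, 10.42, 10.66 and 10.79, above all 20 others, which reached 10.34 (0.42 ± 0.08, adjusted p = 0.00114). The lower one (1436149_at) was also the dimmest tested, at 5.48, 5.66, 6.28 and 5.41, with 1 of these 4 arrays above the filter level, against a median of 6.24 (-0.53 ± 0.14, adjusted p = 0.0108), and its call was lost without BALB/c replicate 1 or 4 (up to 0.0727).

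In complex V, 5 of 17 genes were higher in BALB/c and 1 lower, with a median difference of 0.13. The supernumerary subunits, which sit at the membrane base and at the dimer contact, had 3 of 5 higher (median 0.35), and the F1 head had 2 of 5, while none of the 3 c-ring genes was called in any strain. Atp5j2, a supernumerary subunit (1435395_s_at), read 10.07, 9.99, 10.23 and 10.09 in BALB/c, above all 20 others, which reached 9.91 (0.41 ± 0.09, limma, adjusted p = 0.0023). Atp5e, the epsilon subunit of the F1 part, read 9.18, 8.78, 9.25 and 9.25 in BALB/c against a median of 8.73, with replicate 2 at the level of the others (0.41 ± 0.09, adjusted p = 0.0038). Atp5c1, the gamma subunit that rotates in the F1 head, was higher in BALB/c on 1 of its 2 probe sets, by 0.37 ± 0.08 (adjusted p = 0.00127). Atp5l was higher there by 0.35 ± 0.09 (adjusted p = 0.011, lost without BALB/c replicate 3 or 4). Atp5d, the delta subunit, was the 1 complex V gene lower in SWR at its brightest probe set (-0.33 ± 0.10, adjusted p = 0.0349), and 1 of its 2 probe sets was called. The call was lost without SWR replicate 1, 2 or 3 (up to 0.23).

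Atp5mpl, a small proteolipid, was higher in BALB/c by 0.37 ± 0.12 (limma, adjusted p = 0.0299), a call lost without BALB/c replicate 1, 2 or 4 (up to 0.123), and its F test was lost without the 3 arrays of high skeletal muscle signal (0.0689). Atp5a1, the alpha subunit of the F1 head (1423111_at), was lower in C57BL/6, with arrays at 9.79, 9.79, 9.96 and 9.72 against a median of 10.34 on the others (-0.49 ± 0.10, adjusted p = 0.00123). Its range overlapped the others only at the upper end, where C57BL/6 replicate 3 exceeded their lowest value of 9.89, and its other 2 probe sets were not called in C57BL/6. The dimmest Atp5a1 probe set was higher in BALB/c (0.55) and lower in SWR (-0.67, with none of the 4 SWR arrays above the filter level), where the brightest gave 0.13 and 0.05 and was not called. Atp5j, coupling factor 6 of the peripheral stalk, was the one complex V gene lower in BALB/c, at 9.47, 9.46, 9.40 and 9.35 against a median of 9.76 (-0.31 ± 0.10, adjusted p = 0.0365). That call was lost without any one of the BALB/c arrays (0.0645 to 0.112) or the 3 arrays of high skeletal muscle signal (0.0515), and its F test did not pass (adjusted p = 0.107). Atp5h, another stalk subunit, had a second probe set (1435112_a_at) at 10.02, 9.89, 10.52 and 10.18 in C57BL/6, above all others, which reached 9.78 (0.89 ± 0.10, adjusted p = 1.5e-06). Its brighter probe set gave 0.19 ± 0.09 (adjusted p = 0.202) and was not called. All C57BL/6 arrays lay above the others in 4 member probe sets, against 0.919% of all tested probe sets: Ndufs5 and single probe sets of Ndufc2, Atp5h and Uqcr10, the last of which passed the filter through C57BL/6 alone.

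**Figure D4:**
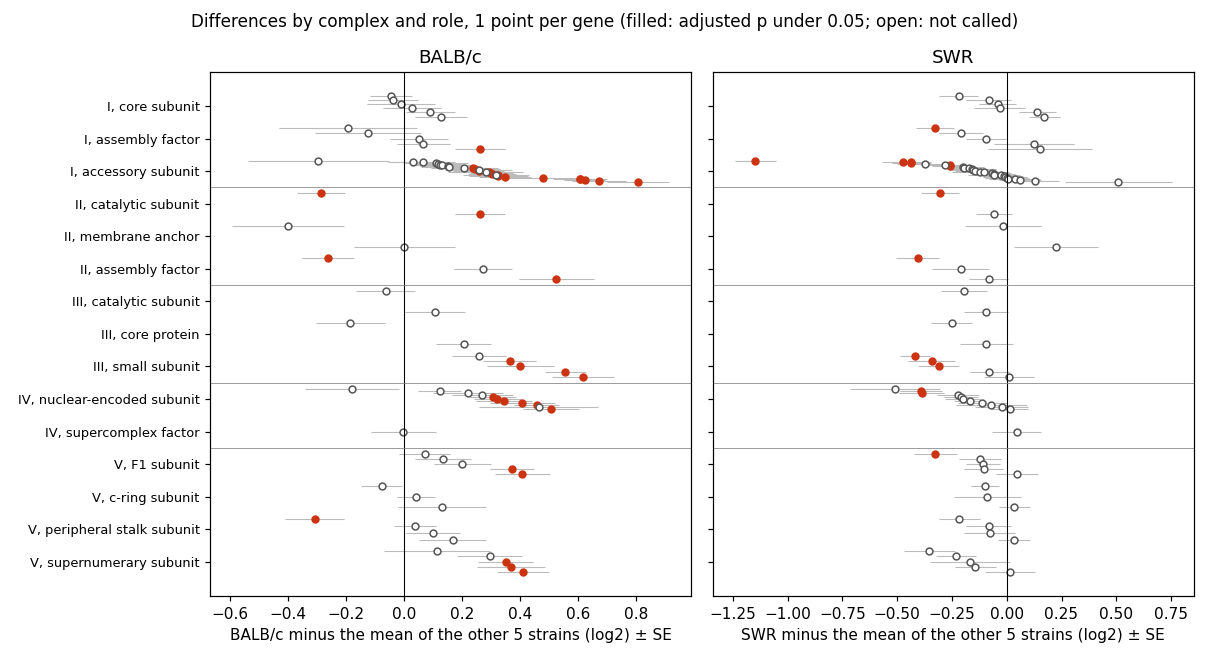
Difference from the other 5 strains (log2, with its standard error) for each of the 84 genes in BALB/c and in SWR, grouped by complex and role, with filled points at an adjusted p under 0.05. The BALB/c points of the complex I accessory and complex III small subunits lie mostly above zero, with medians of 0.27 and 0.40, and those of the complex I core subunits lie near it, at -0.04 to 0.13.

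How far the members moved together was described by correlations, whose points share arrays and scaling. Over the 3486 pairs of the 84 genes, the median correlation of the 6 strain means was 0.26, and that of the 24 arrays after removal of the strain means was 0.12. Across the 6 strain means, complex IV had a median of 0.44, complex III of 0.36, complex I of 0.29, complex V of 0.20 and complex II of -0.15. Within strains complex IV had 0.04 and complex V 0.20.

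Other gene lists give the setting for the member counts. Of 47 cytosolic ribosomal protein genes, taken by their prefixes, 32 were higher and 1 lower in BALB/c, with a median difference of 0.34. These are 68.1% and 2.13%, against 8.3% and 10.6% of all tested probe sets. Among the 32 is Rps6kl1, a kinase-like gene caught by the prefix. The 32 became 22 without BALB/c replicate 1, 21 with the deposited scaling, 17 when the adipocyte score was added to the model and 0 with the smooth muscle score. Of 74 mitochondrial ribosomal proteins, 12 were higher and 2 lower in BALB/c, 1 higher and 7 lower in SWR, and 7 higher in C57BL/6. The 7 in SWR (9.46%, against 5.04% of all tested probe sets) became 3 without its replicate 2. The 7 in C57BL/6 (9.46%, against 5.65%) became 4 without its replicate 3. The 12 in BALB/c (16.2%, against 8.3% of all tested probe sets) became 2 when the smooth muscle score was added to the model and 5 with the adipocyte score, and the 2 lower became 7 with the deposited scaling. The widest of these was Mrpl2, at 6.64 ± 0.29 in SWR and 7.67 ± 0.13 in BALB/c (F test by limma, adjusted p = 0.00327). Of 25 assembly factors outside the member rule, Cox17 and Uqcc2 were higher in BALB/c (8.0%, near the 8.3% of all tested probe sets), Cox16 in AKR, Cox18 and Oxa1l in 129X1, and Coa3 and Higd2a in C57BL/6, while Cox16 and Cox20 were lower in SWR. Of these 9 calls only that of Cox20 held with each array left out in turn. Cox20, a chaperone of the mitochondrially encoded subunit 2 of complex IV, was at 7.12 ± 0.16 in SWR and 7.64 to 7.95 in the other strain means, a difference of -0.70 (adjusted p = 0.000649). Of 15 regulators of mitochondrial biogenesis and mitochondrial DNA 2 passed the F test, against 36.4% of all tested probe sets. Tfb1m, an rRNA methyltransferase, was higher in BALB/c, Tfb2m, a transcription factor of mitochondrial DNA, lower in AKR (6.79 ± 0.34, adjusted p = 0.0402) and Ppargc1a, a coactivator of respiratory genes, lower in SWR. Each of these 3 calls was lost without at least 1 array of its strain, with adjusted p up to 0.0581 for Tfb1m, 0.262 for Tfb2m and 0.112 for Ppargc1a.

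The enzymes that feed the chain were counted in the same way. Of 16 pyruvate dehydrogenase and citric acid cycle genes none was higher in BALB/c and 3 were lower (Idh2, Mdh2 and Ogdh). The 3 are 18.75% of the list, and 8.3% of all tested probe sets were higher and 10.6% lower in BALB/c. In 129X1 4 were higher (Dlst, Idh2, Idh3a and Mdh2), or 25.0% against 6.38%. The 4 became 2 without 129X1 replicate 1, and with the deposited scaling 6 were lower in BALB/c and 6 higher in 129X1. When the smooth muscle score was added to the model none was lower in BALB/c and 1 was higher in 129X1. Idh2, the mitochondrial NADP-dependent isocitrate dehydrogenase, was at 8.05 ± 0.09 in 129X1 and 7.23 ± 0.17 in BALB/c (limma, adjusted p = 2.4e-05 and 0.00201). Of 11 glycolytic genes 4 (36.4%) were higher in FVB (Ldha, Pgam1, Pgk1 and Pkm), against 3.45% of all tested probe sets. With the smooth muscle score in the model the 4 became 2. In BALB/c 1 (9.09%) was higher and 2 (18.2%) lower, against 8.3% and 10.6%. Ldha, which makes lactate from pyruvate, ran from 8.44 ± 0.22 in 129X1 to 9.98 ± 0.18 in FVB (F test, adjusted p = 6.35e-07). Nnt, the proton-driven transhydrogenase of the inner membrane, was at 7.66 ± 0.07 in C57BL/6 and 8.29 to 8.70 in the other strain means, a difference of -0.87 (adjusted p = 1.07e-06), and some C57BL/6 substrains are known to carry a deletion in this gene. Of 7 peroxide defence and uncoupling genes 5 passed the F test (71.4%), against 36.4% of all tested probe sets. Of 21 carriers, pores and import genes 7 did (33.3%, near that share), with Hspe1 the widest (strain means of 7.50 to 8.19, F test, adjusted p = 0.0147). Of 7 ubiquinone synthesis genes none passed it.

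**Figure D5:**
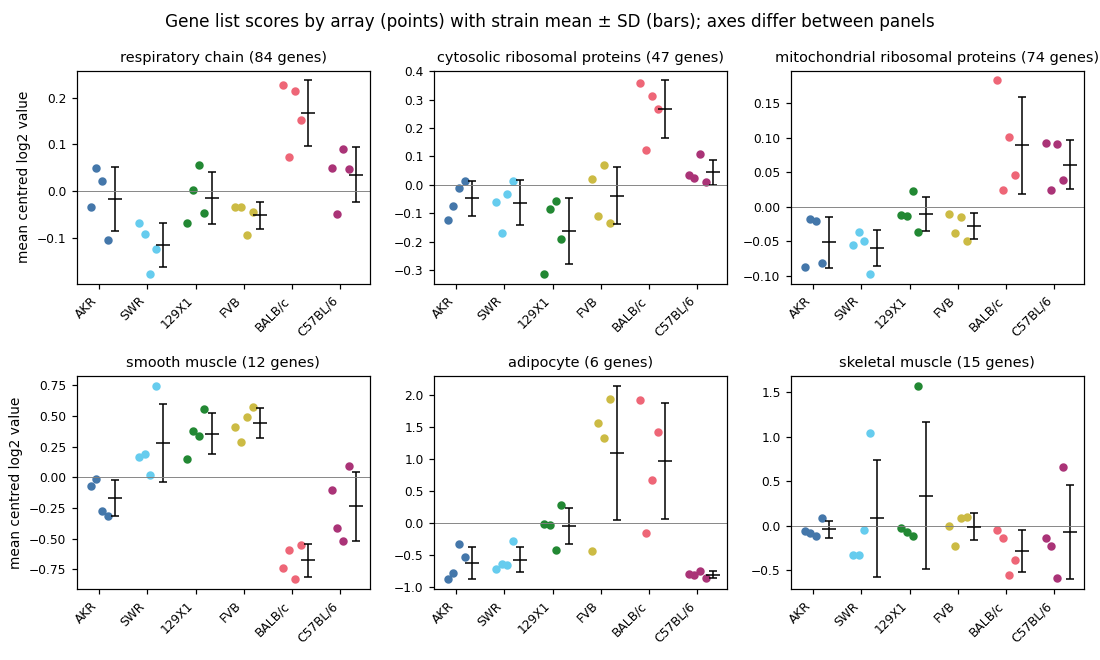
Mean centred log2 level per array (points) by strain for the respiratory chain members, cytosolic and mitochondrial ribosomal proteins, and smooth muscle, adipocyte and skeletal muscle markers, with bars at the strain mean and SD. BALB/c is highest for the members (0.07 to 0.23) and the cytosolic ribosomal proteins (0.12 to 0.36) and lowest for smooth muscle (-0.83 to -0.55).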

How the data were processed

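Total RNA of the ventral prostate was hybridised to 24 Affymetrix arrays, 1 per sample. The authors deposited 1 table of intensity values per probe set on a linear scale, made with MAS5 per the submitters' processing notes, whose settings and version are not given in the sources used here. Each column has a mean of 143, AKR replicate 1 is given to 1 decimal, and 11 values are 0. No column belonged to other samples, and no pair of columns was identical.

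Gene symbols came from the platform annotation, with 20380 probe sets of 1 symbol, 691 of several and 1606 of none. The members exclude 8 probe sets that list several symbols of which at least 1 fits the prefixes. All 88 member symbols matched RefSeq (GRCm38.p6).

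From the deposited intensity values the arrays were rescaled to a common mean of 98.7 after trimming 2% at each end, 16 was added and log2 taken, and 64 control probe sets were left out. A probe set was tested when it exceeded its array's 40th percentile (an intensity of 29.8 to 36.7) on at least 4 arrays, which 6851 did not. One coefficient per strain was fitted with limma 3.58.1 in R 4.3.3 (18 residual degrees of freedom and a prior of 4.85), followed by a moderated F test, a contrast of each strain with the average over the 5 remaining strains, and 15 pairs, all two-sided. The fitting code was tested on simulated data. The number of arrays limits the precision.

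Genes were named by a rule: in each complex the 3 F-called genes of widest range, for each strain the 3 called genes of largest difference in either direction, genes whose probe sets were called in opposite directions, and a list of complex IV isoforms, 33 genes in all. Each pathway list added its F-called gene of widest range. Other names were added after their values were seen. The members, lists and tests were chosen with earlier results of these data known. Gene lists for pathways and for other cell types (skeletal and smooth muscle, adipocyte, brown adipocyte, red cell, leukocyte, endothelium, basal, luminal, secretory and seminal vesicle) were scored as mean centred log2 levels and as summed intensity. Alternatives were a pseudocount of 64, no filter, quantile normalization, the deposited scaling, the replicate number as a block, 3 marker scores as covariates, the other 20 arrays as 1 group, and each array left out in turn.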

Additional observations from a re-analysis of the deposited data

Results flagged for a closer look

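In 9 of 234 groups of 4 arrays examined (the 33 named genes and the scores, by strain), 1 array stood apart from the other 3 by more than Dixon's 95% critical value for 4 values, where chance gives about 1 group in 20. Uqcr10 was 9.16 on BALB/c replicate 2 and 9.53 to 9.59 on the other 3 arrays of that strain. Atp5e was 8.78 on the same array and 9.18 to 9.25 on the others. Ndufs3 was 8.26 on C57BL/6 replicate 3 and 7.86 to 7.92 on the others. Uqcrh was 9.05 on 129X1 replicate 3 against 8.94 to 8.95. Uqcrfs1 was 9.13 on FVB replicate 3 against 9.35 to 9.38. Cox6b1 was 10.46 on 129X1 replicate 1 against 10.71 to 10.75. Sdhaf1 was 6.41 on 129X1 replicate 3 against 6.56 to 6.59. The widest gap was that of Cox8c, the testis form of subunit 8, which read 7.14 on AKR replicate 2 and 8.17 to 8.18 on the other AKR arrays. The mean level of the complex IV genes was 0.0478 above its average over all arrays on FVB replicate 3 and -0.00913 to -0.00112 on the other FVB arrays.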

How the results depend on the processing

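Counts of called member probe sets were recomputed under each alternative. When the smooth muscle score was added to the model, the F test called 49 of the 151 in place of 74, and the strain counts became 2 in 129X1 (from 12), 4 in FVB (from 13), 3 in BALB/c (from 58) and 11 in C57BL/6 (from 19), and the 15 pairs gave 135 calls in place of 350. With the adipocyte score they became 18 in SWR (from 29), 4 in FVB, 21 in BALB/c and 12 in C57BL/6, with 198 over the pairs. With the other 20 arrays as 1 group, which puts the differences among the other strains into the spread, they became 3 in AKR (from 6), 6 in SWR, 2 in 129X1, 4 in FVB, 34 in BALB/c and 5 in C57BL/6. A pseudocount of 64 gave 12 in AKR and 19 in 129X1, and quantile normalization 12 in AKR. Without the 3 arrays of high skeletal muscle signal, an alternative chosen after seeing the data, 129X1 had 3. The cause of these changes was not tested.

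With each array left out in turn the counts ran from 63 to 82 for the F test, 5 to 11 in AKR, 19 to 32 in SWR, 6 to 13 in 129X1, 6 to 16 in FVB, 38 to 62 in BALB/c, 11 to 21 in C57BL/6 and 298 to 373 over the pairs. The share of higher calls moved by over 10 percentage points in AKR, from 2 of 6 to 7 of 12 under quantile normalization 5 of 9 under the deposited scaling and 3 of 5 with the adipocyte score or without AKR replicate 1 or 4, and in 129X1 from 6 of 12 to 10 of 15 under the deposited scaling and 1 of 3 without the 3 arrays. With the adipocyte score it went from 15 of 19 to 8 of 12 in C57BL/6, and with the smooth muscle score from 52 of 58 to 3 of 3 in BALB/c. Leaving out single arrays moved it as far in AKR (4 of 9 without SWR replicate 2, 4 of 8 without BALB/c replicate 4), 129X1 (3 of 8 and 2 of 6 without its replicate 2 or 3) and C57BL/6 (7 of 11 without its replicate 3). No difference of a named gene reversed in sign under any alternative run.

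Same-numbered arrays of different strains did not deviate together: over 60 such pairs the mean correlation was 0.0053 (range -0.208 to 0.153), and 3 of 24 arrays matched best with their own number, so the numbers were not taken to pair the arrays. With the replicate number as a block the counts were 68 for the F test, 6 in AKR, 26 in SWR, 12 in 129X1, 12 in FVB, 55 in BALB/c, 18 in C57BL/6 and 330 over the pairs, and the block changed none of 48 calls of named genes.

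An array signal is relative to the other probe sets on its array, so a shift of all transcripts together cannot be seen. Members that failed the filter have no tested level. Cox5b in BALB/c and Uqcr10 in BALB/c and C57BL/6 had probe sets called in opposite directions, the lower Uqcr10 call in BALB/c being at values below the filter level, and no probe sequences were used here.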

Other observations

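Markers of further cell types were measured on the same arrays. Of 15 skeletal muscle genes Acta1, Myh1 and Myh2, an actin and 2 myosin heavy chains, were lower in BALB/c, and 1 each was higher in AKR (Myh1), SWR and FVB (Acta1) and 129X1 (Actn3), with summed intensities of 507 to 813 on the BALB/c arrays and 567 to 3347 on the others. Of 6 leukocyte genes Csf1r, the receptor for the macrophage growth factor CSF1, was higher in BALB/c and Lyz2, a lysozyme of myeloid cells, lower in AKR. Each is 16.7% of the list, against 8.3% and 5.12% of all tested probe sets. Summed intensities were 651 to 965 on the BALB/c arrays and 443 to 862 on the others. Of 5 endothelial genes none was higher in any strain. The angiopoietin receptor gene Tek was lower in BALB/c and AKR, and Pecam1, an endothelial adhesion molecule, was lower in C57BL/6. Of 2 red blood cell genes Alas2, the erythroid enzyme that starts heme synthesis, was higher in SWR and FVB and lower in AKR and C57BL/6. Of 2 brown adipocyte genes Elovl3, a fatty acid elongase, was higher in BALB/c (limma, adjusted p below the threshold of 0.05 in each of these calls). Neither of the 2 seminal vesicle genes was called in any strain.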
